A study of Mus musculus with 2 samples.

Results

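The 529 sites described here are the places in wild-type (WT) mouse quadriceps muscle where Mbnl2 HITS-CLIP tags piled up most. HITS-CLIP crosslinks a protein to RNA in tissue, trims the RNA with an RNase, purifies the protein with an antibody and sequences the RNA fragments, called tags, that it holds. Tags whose mm9 reference sequence was at least 70% one base were left out, overlapping tags on the same strand from WT and Mbnl1 KO muscle were joined into clusters, and a cluster became a site when it held at least 8 WT tags. Of 402636 clusters, 161057 held a WT tag and 529 held 8 or more. The values that chose the sites are therefore WT tag counts, and every comparison of these counts below is a description without a test.

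Both groups were quadriceps muscle of mice 15 to 16 weeks old, WT and Mbnl1-/- (the Mbnl1 ΔE3 allele, here Mbnl1 KO). The labels give C57BL/6 as the strain, whereas the methods name a mixed background with 129 for the compound knockouts. The RNA was trimmed with RNase A at 38.6 or 0.0386 U/ml and Mbnl2 was purified with the monoclonal antibody 3B4. Tags of 3 mice were merged into 1 table per genotype, which leaves n at 1 table per genotype and no spread between mice. RNA levels were not measured in the same muscles, and more binding and more transcript cannot be told apart.

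Muscleblind-like (Mbnl) proteins bind RNA through paired zinc fingers that prefer YGCY, a GC step flanked by pyrimidines (TGCT in DNA letters, and the forms with C in place of either T). In introns they steer alternative splicing towards adult isoforms, and in 3'UTRs they are linked to mRNA localisation and decay. Mbnl1 is the main family member of adult skeletal muscle, and its loss of function together with that of Mbnl2 underlies much of myotonic dystrophy.

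The sites fell into kinds that differ in sequence, and examples of each are printed here so that the values can be read against them. The first set holds sites in single-copy sequence on the strand of an annotated gene, each as 30 bases around the WT summit (the position covered by the most WT tags), 5′ to 3′ on the gene's strand in mm9, with YGCY in capitals. Rtn4, Myadm, Col1a1, Sh3bgr, Atp2a1, Sepw1 and Atp1b1 are 3'UTR sites with many WT tags, Ldb3, Ttn and Mbnl1 lie in genes that the study names as splicing targets, and the Malat1 site has the most WT tags of this kind. The Sh3bgr, Ttn 3'UTR and Hipk3 sequences hold no YGCY in these 30 bases and are shown because not every site has the motif; Hipk3 is also among the sites with the highest ratios.
Malat1 exon, chr19:5797822-5797851, minus strand: tataagCGCTTGCCtctgtcttctgttctg
Rtn4 3'UTR, chr11:29642586-29642615, plus strand: gcTGCCccacagTGCTtgacctctgagtca
Myadm 3'UTR, chr7:3299141-3299170, plus strand: TGCTTGCTtctTGCTGCTGCTttcTGCTtc
Col1a1 3'UTR, chr11:94814144-94814173, plus strand: cctcccctctTGCTGCTGCTccctcccctc
Sh3bgr 3'UTR, chr16:96450366-96450395, plus strand: ttggctatgcacaagtagaccttctcgtta
Atp2a1 3'UTR, chr7:133589463-133589492, minus strand: cagcaaccCGCTctccctccgaaccttgta
Sepw1 3'UTR, chr7:16502630-16502659, minus strand: ccctccTGCTtTGCTttccctttccacctc
Atp1b1 3'UTR, chr1:166367699-166367728, minus strand: tgTGCTccgTGCTgaaTGCTgtctCGCCat
Ldb3 3'UTR, chr14:35374802-35374831, minus strand: ccTGCTctcTGCCcaccccagagctgacag
Ttn 3'UTR, chr2:76542036-76542065, minus strand: aaataaagcaagctatctgcacctcaaaat
Ttn intron, chr2:76687277-76687306, minus strand: tcttTGCTtgtgtTGCTactcctcctTGCT
Ttn intron, chr2:76763574-76763603, minus strand: acaagagccccTGCTGCTTGCTccactgta
Mbnl1 3'UTR, chr3:60433521-60433550, plus strand: ttactttcTGCTtgtagtggcttaaaatta
Hipk3 3'UTR, chr2:104268899-104268928, minus strand: atttactgttgaagcttgaaaagatgtgag

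The second set holds sites with the word GGGAGG within the 51 bases centred on the summit, a word noticed after the data were seen. They are the site of this kind with the most WT tags and 2 of the sites with the lowest ratios; GGGAGG is in capitals.
intergenic, chr15:39690430-39690459, minus strand: gaggacgGGGAGGacgaggaggacagggag
antisense of Park2, chr17:11571067-11571096, minus strand: gagggaagacgatGGGAGGGAGGaccttgc
intergenic, chr17:83441817-83441846, minus strand: aaaGGGAGGaggaGGGAGGaagatggcctg

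The third set holds sequence found more than once in the genome and mitochondrial sequence, with YGCY in capitals: the site with the most WT tags of all, a 5S rRNA gene copy and the mitochondrial site with the most WT tags.
intergenic, chr17:39983835-39983864, plus strand: acaggactctttcgaggccctgtaattgga
n-R5s103 (5S rRNA), chr8:126067844-126067873, minus strand: ctgaacgCGCCcgatctcgtctgatctcgg
mt-Tv, chrM:1036-1065, plus strand: ttaatattaaagcatctggcctacacccag

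Sites in single-copy gene sequence numbered 146, or 27.6% of the 529, and held 1926 WT tags. GGGAGG sites numbered 164 (31%) with 1804 WT tags. Repeated sequence, meaning that the 20 bases at the summit occur more than once in the genome or that 20 bases of the window recur at another site, accounted for 128 sites (24.2%) with 2509 WT tags. Annotated rRNA, snRNA, snoRNA, microRNA or other small RNA genes held 57 sites with 734 WT tags, mitochondrial DNA held 11 with 396, and 23 single-copy sites lay off any gene strand with 297. All 529 sites together held 7666 WT tags, which is 4.06% of the 188766 WT tags that were kept, and 20015 of 392681 Mbnl1 KO tags (5.10%).

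At the WT summit, 127 sites lay in a 3'UTR, or 24% (95% Clopper-Pearson interval 20.4 to 27.9, counting error only), 15 in a coding exon, 83 in a noncoding exon, 73 in an intron, 33 within 10 kb downstream of a gene, 68 antisense of a gene and 130 between genes. No site lay in a 5'UTR, and 0 of 529 allows a share of up to 0.567% (3 sites of the total; the Clopper-Pearson upper limit is 0.695%). By comparison, 6.78% of the WT tags outside the sites lay in 3'UTRs, 24.7% in introns and 42.8% between genes. The kind of sequence and the annotation went together: 102 of the 127 3'UTR sites were single-copy, and 121 of the 164 GGGAGG sites were antisense of a gene or between genes.

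**Figure D1:**
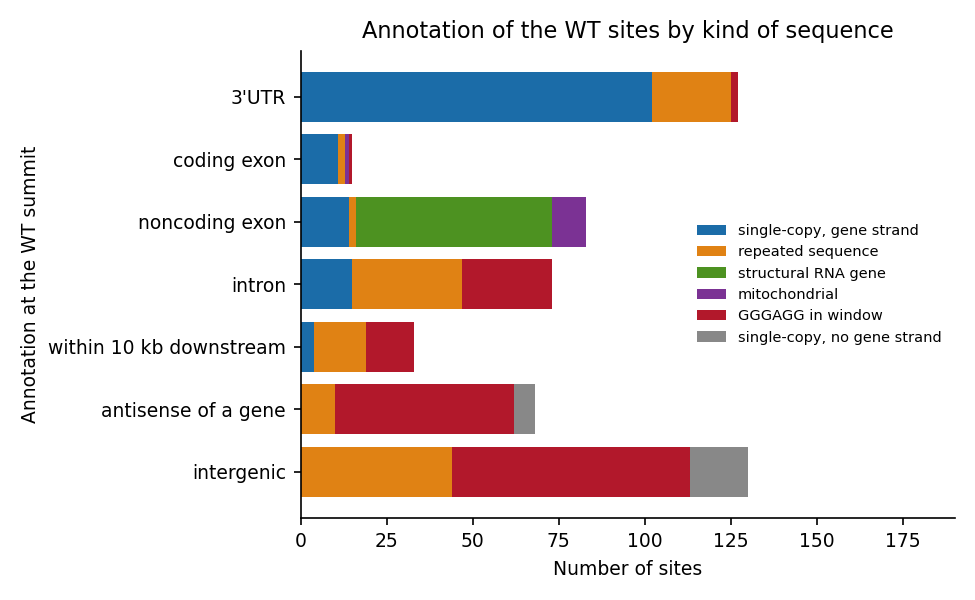
Number of WT sites (horizontal axis) by annotation at the WT summit (vertical axis), stacked by kind of sequence. Single-copy sites fill most of the 3'UTR bar (102 of 127), structural RNA genes most of the noncoding exon bar (57 of 83), and GGGAGG sites most of the antisense and intergenic bars.

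The median site held 11 WT tags and 23 Mbnl1 KO tags and spanned 70 bases. Sites had up to 277 WT tags, and 63 had 20 or more. At the threshold itself, the 115 sites with exactly 8 WT tags had a median of 7 Mbnl1 KO tags (quartiles 2.5 and 19.5), and the 159 clusters with 7 WT tags, just outside it, also had a median of 7 (quartiles 1 and 20).

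To compare the genotypes, Mbnl1 KO tags were multiplied by 0.481, the ratio of kept WT to kept Mbnl1 KO tags, and divided by the WT tags of the site; this is called the KO/WT ratio. Because a site needed WT tags and not Mbnl1 KO tags to be included, the choice lowers the ratio. Over the 529 sites the median ratio was 1.04 (order-statistic interval 0.906 to 1.14), between the kinds of site described next. Such an interval of a median, here and below, treats sites or genes as independent, which sites of the same gene or repeated sequence are not. It does not cover the spread between mice. The ratio was at least 2 at 94 sites and at most 0.5 at 189. Among the 769 clusters with at least 20 tags in both tables together, which the tags of both tables chose, 46.2% had a ratio of at least 2 and 3.9% a ratio of at most 0.5. Scaled to all tags of the tables, single-base tags included, every ratio is 1.5 times as high.

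The median ratio differed between the kinds of sequence, although most kinds held sites on either side of 1. Among single-copy gene sites, the median ratio was 1.39 (interval 1.24 to 1.47) and 103 of 146 had a ratio above 1. Among the GGGAGG sites it was 0.139 (0.107 to 0.180), with 4 of 164 above 1 and 152 at or below 0.5, which is 80.4% of the sites that low. Structural RNA genes had the highest median, 2.64, and repeated and mitochondrial sites had medians of 1.29 and 1.71. The 23 single-copy sites off gene strands had a median of 0.361. The kinds above 1 stayed above 1, and both kinds below 1 stayed below 1, with all tags, tags outside the sites or raw tags as the scale.

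**Figure D2:**
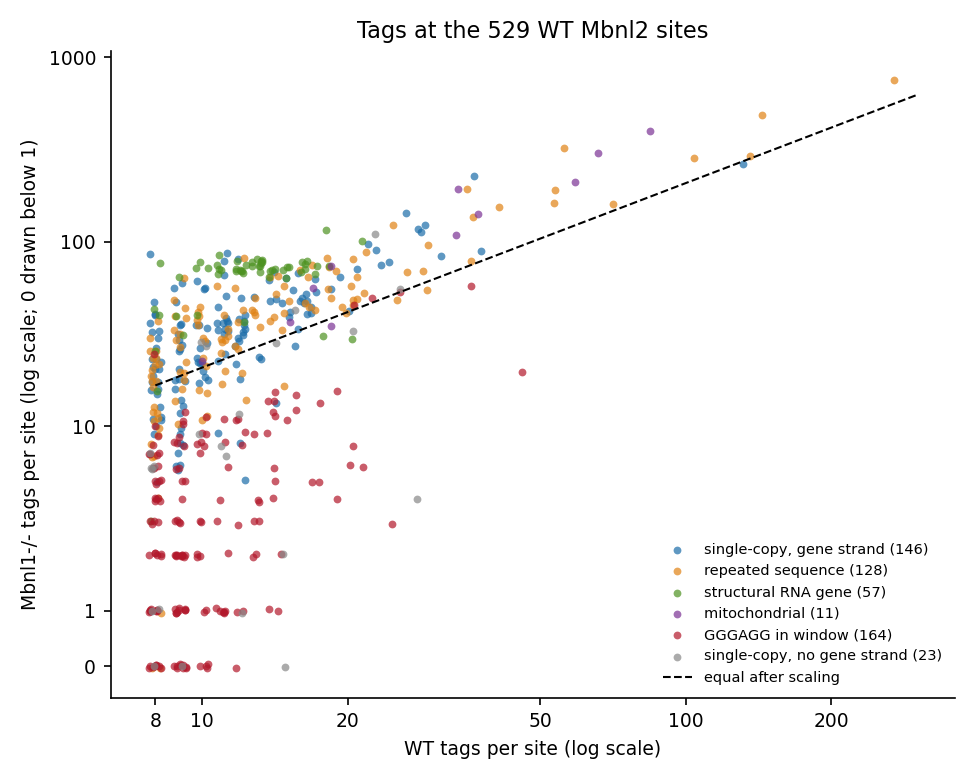
WT tags (horizontal axis, log scale) against Mbnl1 KO tags (vertical axis, log scale, 0 drawn below 1) at each of the 529 sites, coloured by kind, with points moved slightly apart; the dashed line marks equal tags after scaling. GGGAGG sites lie mostly under the line with few Mbnl1 KO tags, and the 5S rRNA copies form the tight group near 73 Mbnl1 KO tags.

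**Figure D3:**
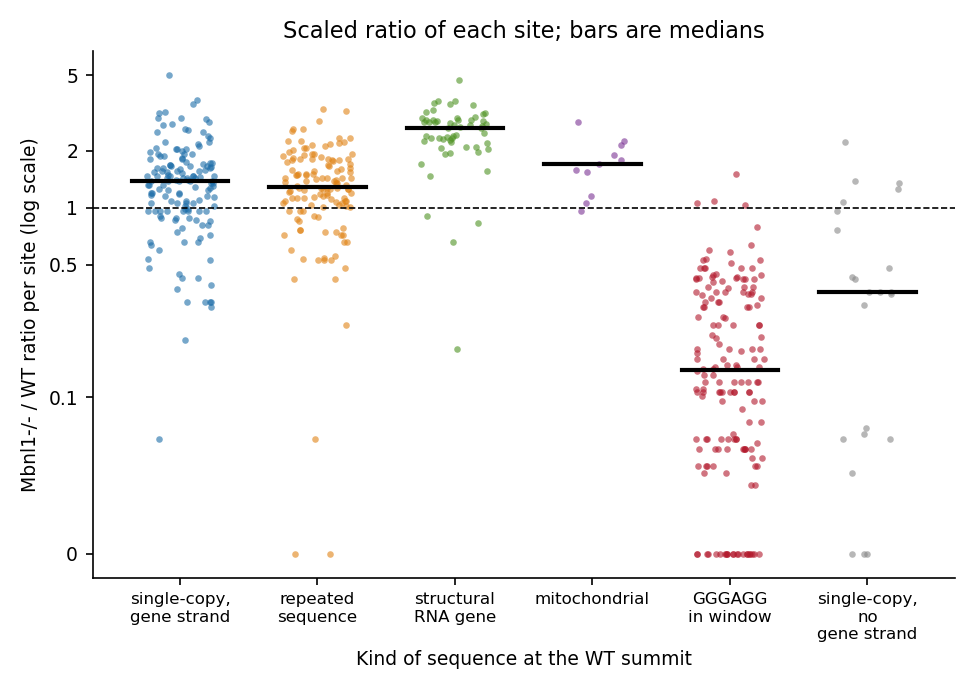
KO/WT ratio of each site (vertical axis, log scale, 0 drawn at the bottom) by kind of sequence, with medians as bars. The medians are 1.39 for single-copy gene sites and 0.139 for GGGAGG sites.

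The single-copy gene sites lay in 107 genes when sites downstream of a gene are set aside, and 19 of these genes held 2 or more. Of the 146 sites, 102 were in 3'UTRs, 15 in introns, 14 in noncoding exons (13 of them in Malat1), 11 in coding exons and 4 downstream of a gene. In total, 160 of 22238 protein-coding genes had a site of any kind on their strand, a background of 0.719% for the gene lists below. This share counts all annotated genes, whatever their RNA level in muscle, which was not measured. A list above it is therefore not shown to be enriched.

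The 3'UTR sites had a median ratio of 1.53, and 84 of 102 were above 1. For single sites a 95% interval was derived from the Clopper-Pearson limits of the share of Mbnl1 KO tags in the site, and it lay above 1 at 28 of the 102 and below 1 at 1. Among the 769 clusters with at least 20 tags, 36.3% had an interval above 1 and 2.86% one below 1. Such intervals compare the merged tables and cover counting error only.

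The 3'UTR sites with many WT tags were in genes of varied function, and those described here were picked after their values were seen. Rtn4, which encodes the endoplasmic reticulum protein reticulon 4 (Nogo), held 2 sites. The larger one (chr11:29642494-29642917) had 229 Mbnl1 KO tags for 37 WT tags (ratio 2.98, interval 2.10 to 4.33), and the other had 10 and 61 (2.93, 1.49 to 6.42). Both Rtn4 sites were thus higher in Mbnl1 KO by nearly the same amount. Myadm, a membrane protein gene, had as many WT tags as Rtn4 (37) but 90 Mbnl1 KO tags, and its interval spanned 1 (0.789 to 1.76), while a smaller Myadm site in repeated sequence had 11 and 58 (2.53, 1.32 to 5.36). The window of the larger site held 7 YGCY, the most among the single-copy 3'UTR sites, as the run of TGCT in the printed sequence shows. Atp1b1, the β subunit of the sodium pump, had 24 WT and 77 Mbnl1 KO tags (ratio 1.54, 0.964 to 2.55). Fxyd1, phospholemman, which regulates that pump, had 21 and 71 (1.63, 0.987 to 2.79). Sh3bgr had 29 WT and 113 Mbnl1 KO tags (1.87, 1.24 to 2.92), D0H4S114 28 and 120 (2.06, 1.36 to 3.23) and Sepw1 27 and 144 (2.56, 1.69 to 4.02). Gnas, in repeated sequence, had 36 and 196 (2.62, 1.83 to 3.85). The intervals of Sh3bgr, D0H4S114, Sepw1 and Gnas lay above 1, whereas that of the Col1a1 3'UTR site, described below, spanned 1.

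Calcium handling genes with sites encode proteins of the sarcoplasmic reticulum and the cytosol. Atp2a1 encodes SERCA1, the calcium pump of fast fibres, and had 3 sites, 1 in the 3'UTR and 2 in coding exons. The 3'UTR site had 29 WT and 120 Mbnl1 KO tags (ratio 1.99, 1.32 to 3.10). The coding sites had 9 WT tags each with 18 and 26 Mbnl1 KO tags, and both intervals spanned 1. Casq1, calsequestrin, which stores calcium in the same compartment, had 13 and 49 tags (1.81, 0.968 to 3.64). Pvalb, the cytosolic calcium buffer parvalbumin, had 10 and 21 in repeated sequence (1.01, 0.455 to 2.40). In the list of 21 genes of calcium handling and membrane excitability, 4 had a site (19%), and 5 of their 6 sites, the Atp1b1 site included, had a ratio above 1, with a median of 1.47. The count above 1 in this and the following lists is to be read against the 103 of 146 of all single-copy gene sites and the 84 of 102 of 3'UTR sites, and no list was shown to stand apart from these. The calcium release channel Ryr1, the chloride channel Clcn1 and the calcium channel subunit Cacna1s had 40, 9 and 9 WT tags over the gene and no site.

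Sarcomere and Z-disc genes held 19 sites in 10 of 30 listed genes (33.3%), with a median ratio of 1.55 and 14 sites above 1, against 103 of 146 single-copy gene sites. Ldb3 (ZASP, which anchors actinin at the Z-disc) had 3 sites in 3'UTRs, with 17, 15 and 12 WT tags and 62, 64 and 40 Mbnl1 KO tags. Their ratios were 1.75, 2.05 and 1.60, and the first 2 intervals lay above 1. Of 3 listed genes of related PDZ and LIM proteins, 2 had a site and Pdlim7 had none, with 2 WT tags over the gene. Pdlim3 had 10 WT and 57 Mbnl1 KO tags (2.74, 1.39 to 6.02), and Pdlim5 had 9 and 47 (2.51, 1.22 to 5.83). Titin (Ttn), the spring of the sarcomere, had a 3'UTR site with 22 WT and 99 Mbnl1 KO tags (2.16, 1.35 to 3.61) and both intronic sites printed above, with 15 and 46 tags (1.47, 0.808 to 2.84) and with 9 and 29 (1.55, 0.714 to 3.72). Among thin filament genes, skeletal actin (Acta1) had 4 sites, 3 of them in coding exons with ratios of 0.811, 1.31 and 1.68 and 1 in the 3'UTR with a ratio of 1.66. Each of their intervals spanned 1. Tropomyosin (Tpm1) had 14 WT and 49 Mbnl1 KO tags (1.68, 0.914 to 3.30). Fast troponin T (Tnnt3) had a coding exon site, chr7:149698158-149698262, with 9 WT and 6 Mbnl1 KO tags (0.320, 0.0939 to 1.01), an interval that spanned 1. The fast myosin heavy chain Myh4 also had 2 coding sites, with 9 and 10 tags and with 8 and 22, both with intervals that spanned 1.

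Energy metabolism was next. Of 14 genes of glycolysis and energy buffering, 4 had a site (28.6%), and all 6 sites of these genes had a ratio above 1, with a median of 1.61, near the 1.53 of all single-copy 3'UTR sites, of which 84 of 102 were above 1. Muscle creatine kinase (Ckm) had 8 WT and 46 Mbnl1 KO tags in its 3'UTR (2.76, 1.29 to 6.78). Aldolase A (Aldoa) had 17 and 41 (1.16, 0.644 to 2.18), and phosphofructokinase (Pfkm) had 11 and 36 (1.57, 0.783 to 3.43). Pyruvate kinase (Pkm2) had 3 sites with 36 WT and 117 Mbnl1 KO tags in all, some of them in sequence that recurs at other sites.

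Of 27 listed regulators of RNA, 2 had a site (7.41%, against the background of 0.719%). Mbnl1 itself had a 3'UTR site (chr3:60433504-60433637) with 11 WT and 81 Mbnl1 KO tags (3.54, 1.88 to 7.37), behind a Phtf2 and a Hipk3 site the highest ratio among single-copy gene sites. Celf2, which antagonises Mbnl in splicing, had 8 WT and 0 Mbnl1 KO tags in its 3'UTR, in a sequence found at 27 places of the genome. The transcription factor Nfix, whose splicing depends on Mbnl, had 2 sites in its 3'UTR with 12 and 51 tags (2.04, 1.07 to 4.21) and with 11 and 33 (1.44, 0.711 to 3.16). The highest ratio of all sites was in the 3'UTR of Phtf2 (8 WT and 84 Mbnl1 KO tags, 5.05, 2.45 to 12.1), and the kinase gene Hipk3 had 2 high sites with 11 and 85 tags (3.71, 1.97 to 7.72) and with 9 and 56 (2.99, 1.47 to 6.88).

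Of 18 genes listed here as splicing targets that the study names, 6 had a site (33.3%): Ldb3, Ttn, Atp2a1, Mbnl1, Tnnt3 and Nfix. The study shows some of them for their tags in these libraries, so the list is not independent evidence. Of their 13 sites, 11 had a ratio above 1, against 84 of 102 single-copy 3'UTR sites, and the other 2 were the Tnnt3 site and an Atp2a1 coding site at 0.961. The other 12 genes had between 1 and 45 WT tags over the gene, and none had 8 in a cluster.

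Connective tissue genes had sites as well. Of 15 extracellular matrix genes, 5 had a site (33.3%). The median ratio was 1.30, and 6 of their 8 sites were above 1, against 103 of 146 single-copy gene sites. Col1a1, the α1 chain of type I collagen, had a 3'UTR site with 31 WT and 85 Mbnl1 KO tags (1.32, 0.864 to 2.06). Its 2 coding sites differed: 10 WT and 17 Mbnl1 KO tags (0.817, 0.353 to 2.0) against 9 and 59 (3.15, 1.55 to 7.23). Collagen VI, which links fibres to the basement membrane, was represented by Col6a1 with 12 and 35 tags and Col6a3 with 41 and 126 at 2 sites. Sparc had 10 WT and 22 Mbnl1 KO tags at its site (1.06), and Bgn had 9 and 18 (0.961).

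**Figure D4:**
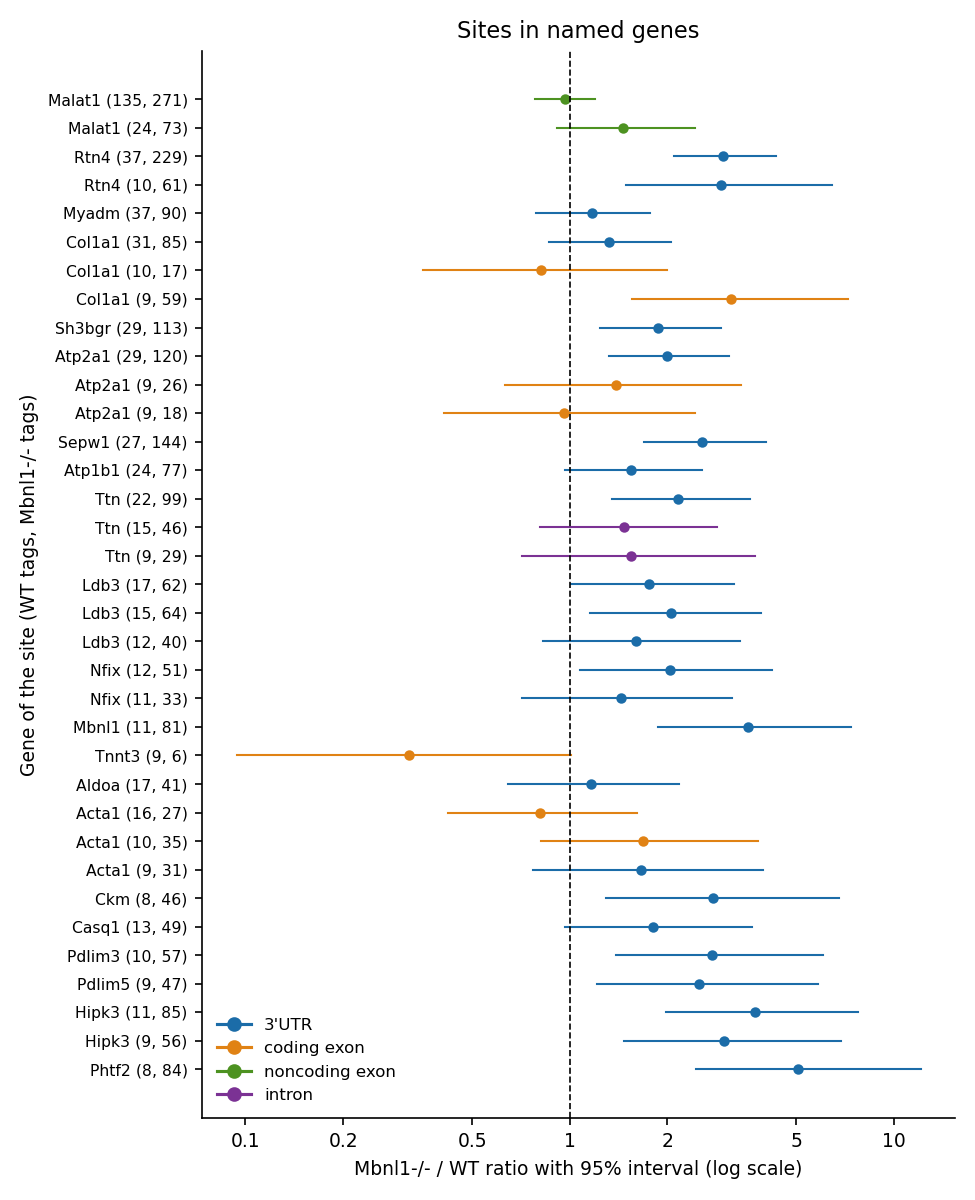
KO/WT ratio (points, log scale) with its 95% counting interval (bars) at 35 single-copy sites of named genes, coloured by annotation, with WT and Mbnl1 KO tags in brackets; the genes were picked after their values were seen and Malat1 is limited to sites with at least 20 WT tags. Rtn4, Mbnl1, Hipk3 and Phtf2 lie wholly to the right of 1, and the Tnnt3 coding site lies furthest to the left.

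Malat1, a long noncoding RNA kept in nuclear speckles, held more sites than any other gene, 13 along 4113 bases. They held between 8 and 135 WT tags each, 276 in all, with 611 Mbnl1 KO tags. The largest (chr19:5797398-5797925) had 135 WT and 271 Mbnl1 KO tags (0.965, 0.782 to 1.2). The other sites ranged from 0.427 to 1.47. None of the other 8 annotated genes in the list of nuclear long noncoding RNAs had a site.

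Introns held 15 single-copy sites, of which 1, in Ttn, lay within 200 bases of an annotated exon (22 bases away). The intronic sites split by length. The 10 sites of up to 50 bases had a median ratio of 0.357 (0.0601 to 0.661), and the 5 longer ones, both Ttn sites among them, had a median of 1.47 (0.887 to 1.66). Among 3'UTR sites, 4 were that short (median 0.704) and 98 were longer (median 1.57). Length and ratio are not independent, because Mbnl1 KO tags helped to extend the clusters. The median of all 15 intronic sites was 0.541, or 1.13 with raw tags, and the coding exon median was 0.961, or 1.44 when scaled to all tags.

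Tags of the same genes that lie outside the sites come from clusters that the rule left out for having fewer than 8 WT tags, so the choice raises their ratio as it lowers that of the sites, and the 2 ratios are not independent of the rule. Among the 82 of 107 genes with at least 8 such WT tags, the median ratio of these other tags was 1.99 (interval 1.71 to 2.06), with 76 above 1, 54 with an interval above 1 and 0 with an interval below 1; the median of the sites in the same genes was 1.47. In protein-coding genes without any site, 57725 WT and 159568 Mbnl1 KO tags gave a pooled ratio of 1.33. All 3'UTR tags outside the sites together had a ratio of 2.09, coding exons 1.82, introns 1.08 and intergenic tags 0.786. The sites held a median of 48.3% of the WT tags of their gene and 39.1% of the Mbnl1 KO tags. In Ttn the sites and the other tags had ratios of 1.82 and 1.73, and in Hipk3 3.39 and 3.69. In Malat1 the values were 1.06 and 2.04 (89 other WT and 378 other Mbnl1 KO tags) and in Tnnt3 0.320 and 1.90 (46 and 182), a difference in the direction that the choice of sites favours.

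YGCY was frequent and centred at the single-copy sites. Counted on the strand of the site, where copies may overlap, 113 of 146 windows of 51 bases held at least 1 YGCY (77.4%, interval 69.7 to 83.9), compared with 40.4% of windows shifted 200 bases upstream and 47.9% shifted downstream. In 3'UTR sites the share was 85.3% (76.9 to 91.5). Of 516632 windows of the same length tiled over all 3'UTRs of protein-coding genes, 43.5% held YGCY, and of the 8314 3'UTR clusters with 1 to 7 WT tags, 69.0%. In those with 5 to 7 WT tags it was already 82.3% of 220. Of the 3'UTR sites 27.5% held 3 or more YGCY, against 3.19% of the tiled windows. TGCT was the most frequent form, present in 77.5% of the 3'UTR sites, followed by TGCC (28.4%), CGCT (11.8%) and CGCC (8.82%).

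Around the summits of the single-copy gene sites, YGCY starts rose to 5.62 per 100 bases in the 10 bases just upstream, whereas bins 30 to 60 bases away on either side had 1.51 to 2.05. Words of 5 and 6 bases, ranked by the excess over the flanks, led with TGCTT (41.8% of sites and 7.19% of flanks) and GCTTG (31.5% and 4.45%), and with TTGCTT (18.5% and 1.03%). The number of YGCY did not order the ratios: 3'UTR sites with 0, 1, 2 and at least 3 had medians of 1.57, 1.67, 1.54 and 1.30, and their ranges overlapped. The 15 sites without YGCY included the Hipk3 site at 3.71 and the Ttn 3'UTR site, whose summit lies 14 bases from the transcript end.

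**Figure D5:**
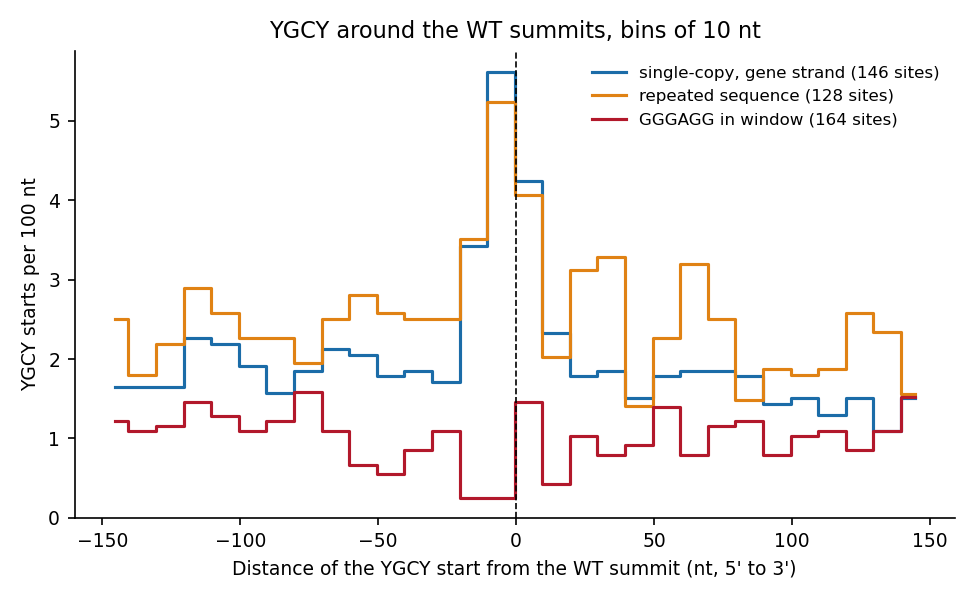
YGCY starts per 100 bases (vertical axis) by distance from the WT summit (horizontal axis, bins of 10 bases) for single-copy gene sites, repeated sites and GGGAGG sites. Single-copy sites peak at 5.62 just upstream of the summit and repeated sites at 5.23, while GGGAGG sites are at 0.244 in the same bin.

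Within 3'UTRs the sites had no fixed place. The median summit was 490 bases from the annotated transcript end, at 0.474 of the length of the 3'UTR, and 0.477 was the median for clusters with 1 to 7 WT tags. Their 3'UTRs were shorter, with a median of 1503 bases against 2285, and 24.5% of the sites lay within 200 bases of the end against 14.2% of the smaller clusters. The WT and Mbnl1 KO summits of single-copy gene sites lay a median of 4 bases apart, and 71.9% were within 10 bases, so the deepest positions of the tables usually lay close together.

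The GGGAGG sites differed from the gene sites in these measures. They had a median length of 29 bases, and 155 of 164 were shorter than 51. Their windows were poor in pyrimidines (median 25.5% C or T, against 58.8% at single-copy gene sites) and 25% held YGCY, less than the 34.8% and 40.2% of their own flanks. GGGAGGA was in 152 of the 164 windows and GACGATG in 33, compared with 5 of the 146 single-copy gene windows for the latter. With the sites aligned on GGGAGG, the most frequent bases right after it were A (86.0% of sites), C (45.1%), G (79.3%), A (69.5%), T (64.6%) and G (83.5%). The linker and primer sequences of the libraries were not used here, so these words were not compared with them, and whether the tags at these sites are RNA held by Mbnl2 was not tested. They were on 20 chromosomes, 29 were on the strand of a gene, and the summit's 20 bases occurred once in the genome at 130 of 164. With 46 WT and 20 Mbnl1 KO tags, the intergenic site on chromosome 15 printed above had the most WT tags (0.209, 0.117 to 0.360). No Mbnl1 KO tag was found at 22 GGGAGG sites, among them the one antisense of Park2 with 12 WT tags, whose interval reached up to 0.173. Intergenic sites at chr15:68274583-68274610 and at the chromosome 17 sequence printed above had 10 WT tags each and 0 Mbnl1 KO tags, with intervals up to 0.214. GGGAGG was in 6.87% of all kept WT tags and 1.24% of the Mbnl1 KO tags.

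Tag ends differed between the kinds, as did the share of C and T in their windows, which the GGGAGG word itself lowers; the part of base composition in the end shares was not tested. RNase A cuts after pyrimidines, so that tags ending in C or T, and starting after C or T, are what its cuts leave. Among tags of at most 28 bases, 64.5% of WT tags at single-copy gene sites ended in C or T and 63.7% followed one. At GGGAGG sites these shares were 39.6% and 17.8%, and outside the sites 57.0% and 52.6%. The Mbnl1 KO tags showed the same order, with 73.3% and 66.7% at single-copy gene sites and 31.7% and 20.6% at GGGAGG sites. Of the WT tags, 36.2% at single-copy gene sites and 62.2% at GGGAGG sites rested on a single read, as did 61.4% at structural RNA genes and 71.7% outside the sites. The 23 single-copy sites off gene strands sat between, with 41.4% and 39.8% for the 2 ends; 6 of them held GACGATG. One of these 23, at chr6:49632705-49632733, held 15 WT tags and none from Mbnl1 KO (interval up to 0.134).

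Most structural RNA sites were 5S rRNA genes. On chromosome 8, 43 sites fell on the minus strand between 126062744 and 126145946, in an array of 5S copies that share their summit sequence. Each had 8 to 18 WT and 64 to 84 Mbnl1 KO tags, together 564 and 3156, with a pooled ratio of 2.69. The summit sequence occurs in about 48 places, so that the copy a tag came from cannot be told and the sites are not independent. The RNA 7SK, which holds back the elongation factor P-TEFb, and its copies had 6 sites with ratios from 1.48 to 3.18. SNORD59, which guides rRNA modification, went the other way with 8 WT and 3 Mbnl1 KO tags (0.180, 0.0308 to 0.751).

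The site with the most WT tags of all, 277 with 764 Mbnl1 KO tags (1.33, 1.15 to 1.53), lay at chr17:39983295-39984361, where the annotation used here has no gene. Next to it on the same strand were sites with 146 and 482 tags (1.59, 1.32 to 1.92) and with 133 and 299 (1.08, 0.878 to 1.34), and sites on chromosome 6 with 104 and 294 and with 53 and 159 tags share 20 bases with these. Other repeated sequence among the 12 sites with the most WT tags was intergenic on chromosome 10 (70 and 165 tags, 1.13, 0.852 to 1.52), downstream of Phka1 (55 and 330, 2.88, 2.16 to 3.91) and in the 3'UTR of Lars2 (53 and 193, 1.75, 1.29 to 2.42). For all these repeated sites the annotation is that of the genome position only. Their sequence recurs elsewhere, and the RNA that gave the tags was not identified. The Lars2 site is thus no evidence that Lars2 mRNA is bound. The mitochondrial site whose summit lies in mt-Tv had 86 WT and 386 Mbnl1 KO tags (2.16, 1.70 to 2.76). It spanned 546 bases (chrM:1025-1570), and no base was covered by more than 13 WT tags. Only the summit gives it the name mt-Tv, and its tags in neighbouring genes were not counted apart. In the mitochondrial ribosomal RNAs, mt-Rnr1 had 2 sites with 71 WT and 337 Mbnl1 KO tags and mt-Rnr2 had 3 with 160 and 631. Over the whole gene, mt-Rnr2 had 222 WT and 919 Mbnl1 KO tags. The 11 mitochondrial sites ranged from 0.961 to 2.86, and 7 had intervals above 1. The mitochondrial windows held YGCY in 2 of 11.

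Facts of the tables bear on all ratios. The WT table collapsed 5176203 reads into 343554 tags, 15.1 reads per tag, and in Mbnl1 KO 50329234 reads were collapsed into 476543 tags, or 106 reads per tag; the part of this difference in the ratios was not tested. Single-base tags were 148588 of the WT and 80234 of the Mbnl1 KO tags on assembled chromosomes. Muscle fibre markers had 603 WT tags in 12 genes and a site in 6 of these, and the lists of adipocyte, endothelial, blood and Schwann cell markers had 8 to 36 WT tags and 0 sites. Fibroblast markers had 195 WT tags in 5 genes, and Col1a1 alone of these had sites. Exon 2 of the annotated Mbnl1 transcript, which holds the start codon, had 5 WT and 2 Mbnl1 KO tags, and exon 3 had 0 WT and 4 Mbnl1 KO tags. The labels do not say which of these the allele removes, and the counts are too few to check the deletion.

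Clusters chosen by the same scaled minimum of Mbnl1 KO tags (17) numbered 688, and 303 of them were also WT sites, which is 44.0% of the former and 57.3% of the latter. Of the 146 single-copy gene sites 119 passed the Mbnl1 KO minimum as well, and of the 164 GGGAGG sites 6 did. Among the KO-chosen clusters 47.2% lay in 3'UTRs and the median ratio was 2.16, a choice that raises the ratio as the WT choice lowers it.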

How the data were processed

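Mbnl2 HITS-CLIP tags were analysed in quadriceps of WT and Mbnl1 KO mice. The deposited values are counts, the number of reads that the authors collapsed into each unique tag, without normalization; before that they filtered and aligned the reads to mm9 with BWA (per the submitters' processing notes; its version is not given in the sources used here), removed potential PCR duplicates and merged 3 mice per genotype. High and low RNase libraries cannot be told apart. Each row was taken as 1 tag. Tags on assembled chromosomes with less than 70% of one base in the reference were clustered if they shared at least 1 base on a strand. Annotation (GENCODE vM1 on NCBIM37, which is mm9) was read at the WT summit, in the order 3'UTR, coding exon, 5'UTR, noncoding exon, intron, downstream, antisense, intergenic. The kind of each site was set, in this order, by chromosome M, GGGAGG in the 51-base window, a structural RNA gene, repeated sequence, and gene strand. Clusters with 1 to 7 WT tags were centred on the middle of their WT tags. Python 3.11.15, numpy 2.4.6, pandas 2.3.3, scipy 1.17.1 and matplotlib 3.10.9 were used, and clustering, summits, intervals and 20-mer counts were tested on simulated data. With 1 merged table per genotype no test and no p-value was computed.

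The members and the gene lists were chosen with earlier results of these data known, and the kinds of sequence were set after the data were seen. Sites were named by rule: the 12 with the most WT tags, the 5 highest and 5 lowest KO/WT ratios, the site with the most WT tags in each gene list and each site in a gene listed as a splicing target that the study names; further sites were chosen after their values were seen, and some sites that the rule names are not reported here. Alternatives covered the minimum of WT tags, the single-base filter, collapsing of tags, clustering, scaling and the motif window.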

Additional observations from a re-analysis of the deposited data

How the results depend on the processing

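No paired analysis was possible because 3 mice share 1 table in either genotype, which also prevents leaving a mouse out. Of 57 values under alternative settings, 21 stayed within 1.5 times the main count or within the main interval and 36 moved. In the main setting, YGCY was in 60.3% of the 51-base windows of all 529 sites, single-copy or not. The YGCY shares below are to be read against that value. With a minimum of 5, 12 or 20 WT tags there were 1402, 223 or 63 sites. Their median KO/WT ratios were 0.537, 1.41 or 1.36, and YGCY was in 55.3%, 67.7% or 55.6%. A single-base filter at 60% gave a ratio of 1.19, 28.2% in 3'UTRs and YGCY in 67.6%. Without that filter there were 3383 sites, with a ratio of 0.0951, 4.02% in 3'UTRs and YGCY in 13.7%. Collapsing tags of the same position gave a ratio of 1.17 and YGCY in 68.3%. With tags of at least 2 reads there were 131 sites, 44.3% in 3'UTRs and 71.0% with YGCY. Clusters made from WT tags alone gave 20.3% in 3'UTRs. The ratio was 2.17 without scaling and 1.56 scaled to all tags. YGCY was in 51.6% of windows of 31 bases, 75.6% of windows reaching 50 bases to either side and 65.2% of whole sites. Of the alternatives chosen after the data were seen, leaving out tags with GGGAGG gave a ratio of 1.36, 34.3% in 3'UTRs and YGCY in 75.7%; keeping the 169 single-copy sites without GGGAGG gave 1.28, 60.4% and 74.0%; and choosing clusters by Mbnl1 KO tags gave a ratio of 2.16 and 47.2% in 3'UTRs. The causes were not tested, apart from the minimum, which by construction leaves fewer or more sites. The reference used here does not mark repeats, so the alternative without repeat-masked windows was not run. At 8 WT tags the interval of a single ratio is wide, as the printed intervals show, and mouse-to-mouse spread is not covered.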

Other observations

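Among 3'UTR sites outside the lists, 3 genes of protein kinase A had sites: the regulatory subunit Prkar1a with 17 WT and 45 Mbnl1 KO tags (1.27, 0.714 to 2.37), the catalytic subunit Prkaca with 16 and 47 (1.41, 0.786 to 2.67), and the inhibitor Pkia with 2 sites of 10 and 34 tags and of 9 and 35. These genes were picked after their values were seen, and their intervals spanned 1. No list of protein kinase A genes was fixed, so members without a site were not counted. Over all 22238 protein-coding genes, 0.719% had a site. The ubiquitin ligase Nedd4 had sites with 11 and 51 tags and with 10 and 54 (2.23 and 2.60), both with intervals above 1. Mib1, another ubiquitin ligase, had 12 and 8 (0.320, 0.114 to 0.853), the one single-copy 3'UTR site whose interval lay below 1.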
